A study of Mus musculus with 12 samples.

Results

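The 34 genes described here belong to the endoplasmic reticulum (ER) stress response and to the ATF4 branch of the integrated stress response. They were taken by symbol from the count files of the series, where all 34 were present among 24147 genes, and all 34 were among the 14560 genes with enough counts to be tested. They fall into 17 ER chaperone, folding and degradation genes, 7 sensor, transcription factor and feedback genes, and 10 ATF4 target genes. RNA came from the lens capsule with its attached lens epithelial cells of adult mice aged 2 months whose lens fiber cells had been removed in vivo, which models cataract surgery. Capsules were frozen directly after the operation (0 h) or 48 h later, so every group, the 0 h controls included, underwent fiber cell removal. Wild type (WT) mice were C57BL/6. FNcKO mice carried a conditional knockout of fibronectin and were of mixed strain (C57BL/6, 129, FVB/N), and therefore the knockout and the strain background cannot be told apart in any comparison of the genotypes. The sources used here do not give the Cre driver, the deleted exons or how many lenses or animals a library holds. Each of the 4 groups (WT and FNcKO, 0 h and 48 h) had 3 libraries, which the series calls biological triplicates, and p-values measure the spread between these libraries. The stated question of the series is what fibronectin does in the opacification of the capsule that follows the operation.

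Cells fold secreted and membrane proteins in the ER with the help of chaperones such as BiP (Hspa5). When unfolded proteins build up, the sensors ATF6, IRE1 (Ern1) and PERK signal to the nucleus. ATF6 and the spliced form of XBP1 activate genes of chaperones and of ER-associated degradation, while PERK phosphorylates eIF2alpha, which slows translation and favours that of ATF4. Other eIF2alpha kinases, among them GCN2, which responds to a shortage of amino acids, also act through ATF4, whose targets include genes of amino acid synthesis and transport. Neither Xbp1 splicing nor the translation of Atf4 can be seen in counts per gene. Lens epithelial cells secrete the lens capsule and thus use the ER for matrix proteins.

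Chaperone genes and ATF4 target genes are known to be switched on through different short promoter elements, and promoters that hold them are printed for members that moved and members that did not. For 30 of the 34 genes a RefSeq window was available (31 windows, GRCm38.p6, the assembly behind mm10), and the 250 bases before the annotated start were searched on both strands. The ER stress element (ERSE) was taken as CCAAT, 9 free bases and CCACG, and ERSE-II as ATTGG, 1 free base and CCACG. The C/EBP-ATF response element (CARE), a type of site bound by ATF4, was taken as TGATGNAAN, and its stricter form, contained in it, as TGATGCAAT. ERSE occurred in 8 of the 31 windows (those of Hspa5, Hsp90b1, Calr, Canx, Pdia6, Dnajc3, Creld2 and Syvn1), against 37 of 32851 windows of all genes (0.113%). ERSE-II occurred in the window of Herpud1 and in 10 of all windows (0.0304%). CARE occurred in 4 windows (Herpud1, Asns, Chac1 and Slc7a11), against 1129 of all windows (3.44%), and the strict form in no window of these genes and in 55 of all (0.167%). A match is a description of the letters and not a measured binding site, and a window without a match lacks only these letters. The windows of all genes include the 31. Since genes of these kinds are known for such elements, the shares are not a test of these data.

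The promoters of 5 chaperone genes are given 5′ to 3′ in the direction of the gene, with ERSE in capitals (on the reverse strand it begins CGTGG and ends ATTGG). The first 3 belong to genes that rose after the operation in WT, and the last 2 to genes that passed the test in neither genotype. Their positions are Hspa5 chr2:34771840-34772089 (plus strand), Hsp90b1 chr10:86705445-86705694 (minus strand), Calr chr8:84846932-84847181 (minus strand), Canx chr11:50325674-50325923 (minus strand) and Dnajc3 chr14:118937682-118937931 (plus strand). Hsp90b1 held ERSE once on each strand.
Hspa5: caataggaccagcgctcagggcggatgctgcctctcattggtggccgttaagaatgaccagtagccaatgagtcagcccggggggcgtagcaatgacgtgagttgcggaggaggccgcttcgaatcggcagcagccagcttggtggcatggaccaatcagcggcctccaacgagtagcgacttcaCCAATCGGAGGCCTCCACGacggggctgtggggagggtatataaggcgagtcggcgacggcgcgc
Hsp90b1: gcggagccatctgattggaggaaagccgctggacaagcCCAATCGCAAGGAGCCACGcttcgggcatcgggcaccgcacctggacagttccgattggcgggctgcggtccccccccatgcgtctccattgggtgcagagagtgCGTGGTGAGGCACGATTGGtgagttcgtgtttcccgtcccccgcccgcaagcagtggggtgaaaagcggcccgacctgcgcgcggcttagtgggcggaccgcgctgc
Calr: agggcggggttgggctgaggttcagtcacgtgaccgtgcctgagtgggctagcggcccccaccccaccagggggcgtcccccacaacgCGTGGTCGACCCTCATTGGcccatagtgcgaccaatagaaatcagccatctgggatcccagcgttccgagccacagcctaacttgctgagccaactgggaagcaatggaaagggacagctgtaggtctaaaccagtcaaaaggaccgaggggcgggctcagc
Canx: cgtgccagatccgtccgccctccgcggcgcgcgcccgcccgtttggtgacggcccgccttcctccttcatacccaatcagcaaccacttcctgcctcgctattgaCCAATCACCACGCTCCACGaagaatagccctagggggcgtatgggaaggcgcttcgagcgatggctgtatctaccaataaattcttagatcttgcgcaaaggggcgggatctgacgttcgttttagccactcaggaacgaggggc
Dnajc3: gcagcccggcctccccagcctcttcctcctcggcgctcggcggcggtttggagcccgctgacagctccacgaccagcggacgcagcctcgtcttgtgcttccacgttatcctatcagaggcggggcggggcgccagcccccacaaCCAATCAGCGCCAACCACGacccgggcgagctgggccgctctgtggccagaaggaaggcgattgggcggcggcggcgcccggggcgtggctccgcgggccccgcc

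The next 4 promoters carry CARE, in capitals, and that of Herpud1 carries ERSE-II as well (the capitals nearer to the start). Their positions are Herpud1 chr8:94386179-94386428 (plus strand), Asns chr6:7693210-7693459 (minus strand), Chac1 chr2:119350992-119351241 (plus strand) and Slc7a11 chr3:50443614-50443863 (minus strand). Asns and Chac1 had higher levels at 48 h in WT, Herpud1 had lower ones, and Slc7a11 did not pass the test, as described further on. On the reverse strand CARE ends in CATCA.
Herpud1: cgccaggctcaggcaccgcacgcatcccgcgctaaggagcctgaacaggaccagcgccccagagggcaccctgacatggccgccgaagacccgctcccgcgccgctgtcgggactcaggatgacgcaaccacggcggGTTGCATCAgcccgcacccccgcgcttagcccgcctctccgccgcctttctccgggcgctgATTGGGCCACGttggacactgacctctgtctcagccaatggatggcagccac
Asns: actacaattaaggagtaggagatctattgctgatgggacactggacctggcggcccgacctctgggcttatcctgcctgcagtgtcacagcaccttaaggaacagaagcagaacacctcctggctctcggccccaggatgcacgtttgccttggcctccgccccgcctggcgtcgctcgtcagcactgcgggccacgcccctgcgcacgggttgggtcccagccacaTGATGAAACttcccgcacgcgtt
Chac1: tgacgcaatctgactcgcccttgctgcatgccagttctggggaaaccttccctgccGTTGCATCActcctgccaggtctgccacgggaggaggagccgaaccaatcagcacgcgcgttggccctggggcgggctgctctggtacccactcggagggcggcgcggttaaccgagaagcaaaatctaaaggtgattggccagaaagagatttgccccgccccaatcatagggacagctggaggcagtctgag
Slc7a11: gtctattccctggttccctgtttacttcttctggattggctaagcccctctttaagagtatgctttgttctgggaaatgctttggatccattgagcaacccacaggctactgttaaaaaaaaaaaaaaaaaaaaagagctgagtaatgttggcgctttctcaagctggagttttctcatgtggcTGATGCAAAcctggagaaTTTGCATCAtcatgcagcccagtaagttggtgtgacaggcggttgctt

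Library totals ran from 8368160 to 10862573 counts. Levels are counts per 1e+06 (CPM) scaled by TMM, whose factors ran from 0.754 in FNcKO 0 h replicate 3 to 1.165, and differences were tested with edgeR's quasi-likelihood F test and Benjamini-Hochberg (BH) adjustment over all 14560 genes. An adjusted p under 0.05 was taken as past the threshold. The ± beside a log2 value is an approximate standard error (SE), obtained by dividing the log2 value by the root of F. Fn1, the targeted gene, was at 18.9, 23.0 and 15.5 CPM in WT and 16.8, 9.80 and 8.31 in FNcKO at 0 h, and at 1513, 527 and 978 in WT and 146, 297 and 687 in FNcKO at 48 h. These counts cover the whole gene and do not check the deletion. Crystallin genes held 12.9 to 20.2% of the counts in WT and 13.9 to 24.7% in FNcKO at 0 h, and 1.79 to 7.43% and 1.48 to 11.9% at 48 h. In a combined table of 9 libraries deposited with the series, the column named WT 0 h replicate 1 equals FNcKO 0 h replicate 1 in all 24147 genes. The separate file of WT 0 h replicate 1 was used, and results without both 0 h replicate 1 libraries are given where they change a call.

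At 48 h after fiber cell removal, 12 of 14 ER chaperone genes in WT and 7 of 14 in FNcKO passed the threshold with higher levels than at 0 h. By the sign of the log2 value alone, 14 of the 14 in WT and 13 in FNcKO were higher. Part of the ATF4 target genes also passed with higher levels. The serine synthesis genes Psat1 and Phgdh and the degradation gene Herpud1 passed with lower ones. Genes said to rise or fall are those past the threshold. In WT, 19 of the 34 genes rose, 3 fell and 12 did not pass the test. Of all tested genes, 19.1% rose and 13.5% fell in the same comparison. The median log2 change was 0.81 over the 34 genes and 0.02 over all tested genes. In FNcKO, 12 rose, 5 fell and 17 did not pass, against 14.9% and 9.90% of all genes, with a median of 0.36 for the 34 genes and 0.002 for all. The levels of 20 genes in WT and 12 in FNcKO were higher at 48 h with no overlap between the libraries of the times, against 27.5% and 20.1% of all genes. In these bulk samples, fewer cells of a type and less RNA per cell cannot be told apart. With libraries scaled by total counts instead of TMM, the median of all genes shifted to 0.23 in WT and 0.29 in FNcKO, and the share of higher genes among all called genes went from 58.5% to 76.2% and from 60.1% to 82.4%; the members' medians were then 1.02 and 0.64, with 20 members higher and 2 lower in WT and 16 higher and 3 lower in FNcKO. Without both 0 h replicate 1 libraries, 15 members rose in WT and 7 in FNcKO.

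**Figure D1:**
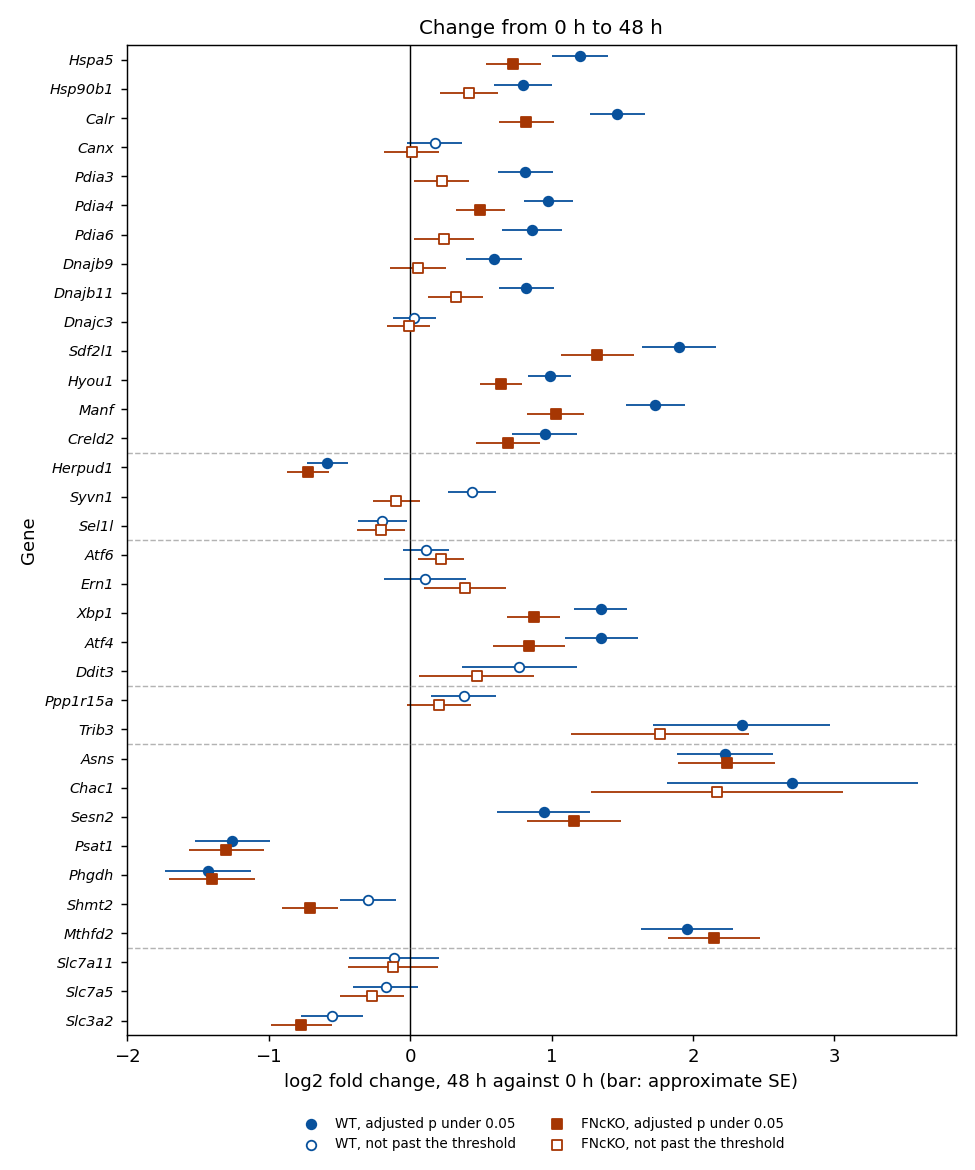
The log2 fold change from 0 h to 48 h (x axis) of the 34 genes (y axis, grouped by role between dashed lines) is plotted for WT (blue circles) and FNcKO (red squares), with the approximate SE as bars and filled symbols where the edgeR adjusted p was under 0.05. In WT 19 genes are filled to the right of 0 and 3 to the left, and in FNcKO 12 and 5.

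Of the 14 chaperone and folding genes, 12 rose in WT and none fell (median log2 0.91), and 7 rose in FNcKO and none fell (median 0.46). The summed level of the 14 was 2945, 3139 and 3743 CPM in the WT 0 h libraries and 6404, 5684 and 5669 at 48 h. In FNcKO it was 3323, 4138 and 4332 at 0 h and 4959, 5496 and 5275 at 48 h. In both genotypes every 48 h sum was above every 0 h sum. The count of 7 in FNcKO fell to 4 without FNcKO 0 h replicate 1 (also without both 0 h replicate 1 libraries), without FNcKO 48 h replicate 2, or with only the FNcKO libraries in the fit, and was 10 with total counts, where Hsp90b1, Dnajb11 and Pdia6 passed as well.

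Hspa5 encodes BiP, the main Hsp70 chaperone of the ER and a classical readout of ER stress, and lies on chromosome 2 from 34772090 to 34776529 (mm10). It was at 359, 434 and 469 CPM in WT at 0 h and at 1006, 1045 and 849 CPM at 48 h. All 48 h libraries were higher, a 2.30-fold rise (log2 1.20 ± 0.20, edgeR, BH-adjusted p = 0.000643). FNcKO libraries read 411, 502 and 577 CPM at 0 h and 738, 888 and 844 CPM at 48 h, again without overlap, a 1.66-fold rise (log2 0.73 ± 0.19, edgeR, adjusted p = 0.0153). The FNcKO call was lost without FNcKO 0 h replicate 1 (edgeR, adjusted p = 0.0682), without both 0 h replicate 1 libraries (0.0724), without FNcKO 48 h replicate 2 (0.0568) and with only the FNcKO libraries in the fit (0.0573). Sdf2l1 and Dnajb11, which work with BiP as cofactors, moved by different sizes. Sdf2l1 was low, at 3.81, 4.69 and 5.06 CPM in WT at 0 h, and reached 21.1, 16.8 and 12.8 at 48 h (log2 1.90 ± 0.26, edgeR, adjusted p = 0.000222), the largest change among the 14 chaperone genes in WT. In FNcKO it went from 5.25, 4.38 and 6.45 to 13.4, 12.2 and 14.6 (log2 1.32 ± 0.26, edgeR, adjusted p = 0.00278). Both genotypes thus had separate ranges for Sdf2l1 at the 2 times. Dnajb11 rose in WT from 59.2 ± 10.9 to 104.7 ± 1.89 CPM (SD, n = 3; log2 0.82 ± 0.20, edgeR, adjusted p = 0.00657), and its FNcKO means were 82.4 ± 23.0 and 103 ± 3.64 (log2 0.32 ± 0.20, edgeR, adjusted p = 0.25; 0.0168 with total counts).

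Hsp90b1 (GRP94) is the Hsp90 chaperone of the ER lumen, and Hyou1 (GRP170) a large chaperone that also exchanges nucleotides on BiP. Hsp90b1 was at 522, 567 and 677 CPM in WT at 0 h and at 1126, 913 and 1031 at 48 h (log2 0.80 ± 0.20, edgeR, adjusted p = 0.00938). In FNcKO its libraries read 506, 716 and 721 at 0 h and 762, 930 and 899 at 48 h. These did not overlap either, but the change of log2 0.42 ± 0.20 did not pass (edgeR, adjusted p = 0.153; 0.0224 with total counts). Hyou1 rose in both genotypes, from 126.6 ± 13.8 to 251 ± 22.5 CPM in WT and from 145.7 ± 6.16 to 227.5 ± 26.1 in FNcKO (SD, n = 3; log2 0.99 ± 0.15 and 0.64 ± 0.15, edgeR, adjusted p = 0.000452 and 0.00784).

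Calreticulin (Calr) and calnexin (Canx) bind sugar-bearing glycoproteins during folding, Calr in the lumen and Canx in the ER membrane, and of the pair Calr alone passed the test. It was at 308, 383 and 400 CPM in WT at 0 h and at 1081, 1017 and 919 at 48 h, a 2.76-fold rise (log2 1.47 ± 0.20, edgeR, adjusted p = 0.000173). The FNcKO levels were 399.8, 487 and 583 at 0 h and 809, 873 and 916 at 48 h (log2 0.82 ± 0.19, edgeR, adjusted p = 0.00767). The times were separate in both genotypes. Canx was at 606, 642 and 811 CPM in WT at 0 h and at 861, 689 and 773 at 48 h, ranges that overlapped (log2 0.17 ± 0.19, edgeR, adjusted p = 0.514). In FNcKO its means were 757 ± 108 and 763 ± 56.8 CPM (SD, n = 3; log2 0.01 ± 0.19, edgeR, adjusted p = 0.976). Per kilobase of gene model, Calr and Canx stood at 187 and 160.1 CPM in WT at 0 h and at 518 and 181 at 48 h. Calr was then the most abundant of the 14 chaperone genes on that scale, whereas Hsp90b1 had been at 0 h (213).

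The protein disulfide isomerases Pdia3, Pdia4 and Pdia6 form and rearrange disulfide bonds in folding proteins. All 3 rose in WT. Pdia3 went from 448 ± 69.9 to 788.5 ± 85.8 CPM (SD, n = 3; log2 0.82 ± 0.20, edgeR, adjusted p = 0.00697). Pdia6 went from 215.7 ± 35.8 to 391.9 ± 10.3 (log2 0.86 ± 0.21, edgeR, adjusted p = 0.00809). Pdia4 went from 111, 112 and 146 CPM to 278, 205 and 243 (log2 0.98 ± 0.17, edgeR, adjusted p = 0.00108). Of these, Pdia4 alone passed in FNcKO, narrowly, at 129, 154 and 168 at 0 h and 199, 225 and 214 CPM at 48 h (log2 0.50 ± 0.17, edgeR, adjusted p = 0.0496), and that call was lost in 14 of 22 alternatives, 8 of which left out a single library (replicates 1 and 2 of WT 0 h, replicate 3 of WT 48 h, replicates 1 and 2 of FNcKO 0 h, and each of FNcKO 48 h; adjusted p 0.0553 to 0.171; 0.183 without both 0 h replicate 1 libraries). Pdia3 and Pdia6 overlapped between the times in FNcKO (log2 0.22 ± 0.20 and 0.24 ± 0.21, edgeR, adjusted p = 0.443 and 0.445). For Pdia6, FNcKO 0 h replicate 3 read 369 CPM beside 211 and 219 in the others, and without it the change was log2 0.51 and passed (edgeR, adjusted p = 0.0461), as it did with total counts (0.0359).

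Manf and Creld2 encode small secreted ER proteins known as stress-induced. Manf was at 30.4, 33.3 and 39.1 CPM in WT at 0 h and at 117, 109 and 116 at 48 h, a 3.33-fold rise with the smallest adjusted p of the 34 genes in WT (log2 1.73 ± 0.21, edgeR, adjusted p = 7.59e-05). In FNcKO it was at 39.2, 49.6 and 69.9 at 0 h and 89.9, 110 and 124 at 48 h (log2 1.03 ± 0.20, edgeR, adjusted p = 0.0027). Neither genotype had an overlap for Manf. Creld2 rose in WT from 18.7, 20.2 and 13.7 CPM to 33.0, 35.7 and 33.3 (log2 0.95 ± 0.23, edgeR, adjusted p = 0.0066). In FNcKO it read 18.5, 17.9 and 24.1 at 0 h and 23.4, 32.1 and 42.1 at 48 h, where 1 library of each time overlapped (log2 0.69 ± 0.23, edgeR, adjusted p = 0.0401). That call was lost when any 1 of 7 libraries was left out (replicates 1 and 2 of WT 0 h, replicate 3 of WT 48 h, replicates 1 and 2 of FNcKO 0 h, and replicates 2 and 3 of FNcKO 48 h; adjusted p 0.0517 to 0.204) and without both 0 h replicate 1 libraries (0.146). Of the J-domain cochaperones, Dnajb9 rose from 31.2 ± 5.24 to 47.0 ± 5.45 CPM in WT (SD, n = 3; log2 0.59 ± 0.20, edgeR, adjusted p = 0.0344), which no longer passed without replicate 1 or 3 of WT 0 h (0.118 and 0.0917), without replicate 1 or 2 of WT 48 h (0.0846 and 0.0975) or without both 0 h replicate 1 libraries (0.11). Dnajb9 in FNcKO was at 38.7 ± 10.6 and 40.2 ± 1.05 (log2 0.06 ± 0.20, edgeR, adjusted p = 0.874). Dnajc3, also known as an inhibitor of PERK, stayed between 140 and 172 CPM over all WT libraries (log2 0.03 ± 0.15, edgeR, adjusted p = 0.898) and had log2 -0.01 ± 0.15 in FNcKO (edgeR, adjusted p = 0.975).

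**Figure D2:**
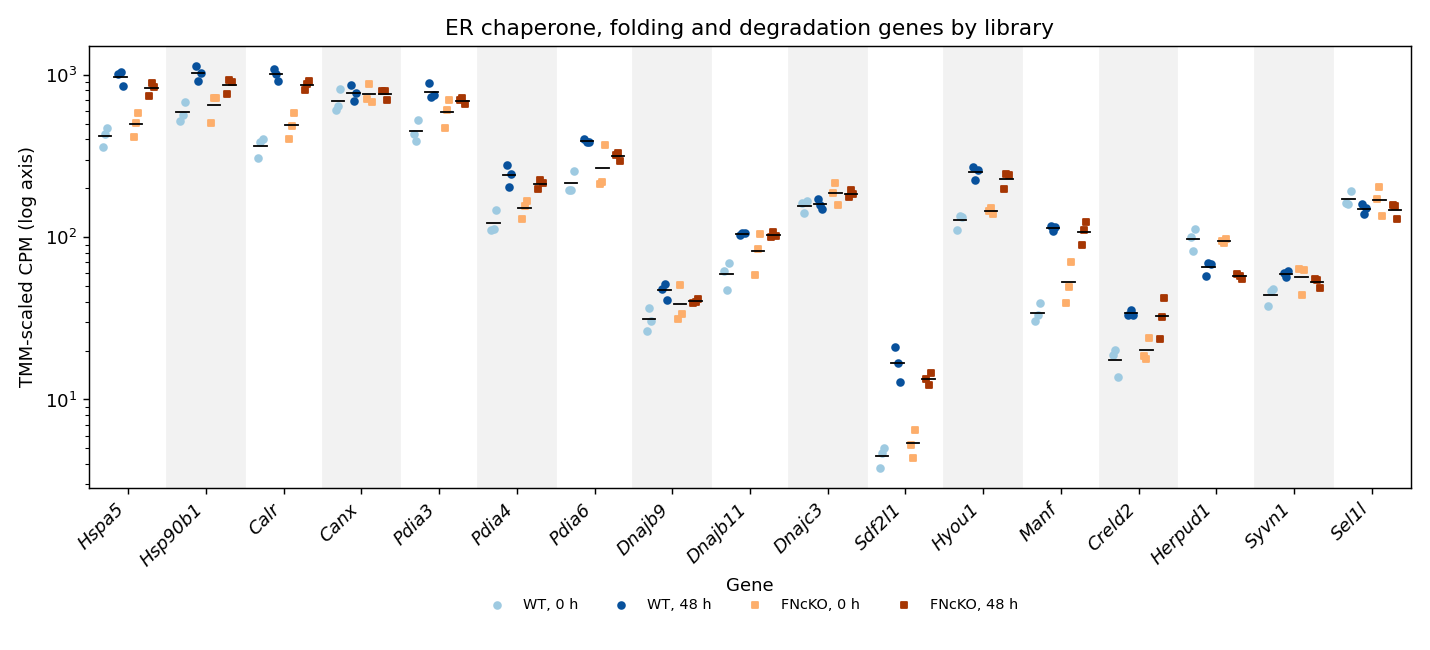
Each point is the TMM-scaled CPM of a library (y axis, log scale) for the 17 chaperone, folding and degradation genes (x axis), with the 3 libraries of each of the 4 groups side by side and black bars at the group means. The Hspa5 points at 48 h (849 to 1045 in WT, 738 to 888 in FNcKO) lie above those at 0 h (359 to 469 and 411 to 577), while Herpud1 lies lower at 48 h and Canx overlaps.

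None of the 3 ER-associated degradation genes rose. Herpud1, which helps to assemble the degradation complex in the ER membrane, fell in both genotypes. It was at 99.7, 82.1 and 112 CPM in WT at 0 h and at 57.9, 69.7 and 68.2 at 48 h (log2 -0.59 ± 0.15, edgeR, adjusted p = 0.00843). FNcKO libraries read 95.2, 91.8 and 97.7 at 0 h and 59.6, 57.6 and 55.4 at 48 h (log2 -0.72 ± 0.15, edgeR, adjusted p = 0.00342). The times did not overlap in either genotype, and only scaling by total counts ended the WT call (log2 -0.37, adjusted p = 0.0691). Syvn1, the ubiquitin ligase HRD1, was at 37.6, 46.4 and 48.2 CPM in WT at 0 h and at 59.7, 57.2 and 61.9 at 48 h. The WT change of log2 0.44 ± 0.17 lay just short of the threshold (edgeR, adjusted p = 0.0599), and it passed without FNcKO 0 h replicate 2 (0.0324), with total counts (0.0125) and with only the WT libraries in the fit (0.0434). Its FNcKO change was -0.10 ± 0.17 (edgeR, adjusted p = 0.714). Sel1l, the partner of HRD1, had log2 -0.19 ± 0.17 in WT and -0.20 ± 0.17 in FNcKO (edgeR, adjusted p = 0.402 and 0.423).

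Among sensors and transcription factors, Xbp1 and Atf4 rose in both genotypes, whereas the sensors Atf6 and Ern1 and the factor Ddit3 did not pass. Xbp1 was at 59.8, 72.4 and 71.0 CPM in WT at 0 h and at 197, 192 and 128 at 48 h (log2 1.35 ± 0.19, edgeR, adjusted p = 0.00025). The FNcKO levels were 63.5, 68.5 and 79.8 at 0 h and 112, 126 and 150 at 48 h (log2 0.87 ± 0.19, edgeR, adjusted p = 0.00467). All 48 h libraries exceeded all 0 h libraries within each genotype. Atf4 was at 81.8, 76.0 and 66.6 CPM in WT at 0 h and at 132, 261 and 181 at 48 h, a wide range at the later time (log2 1.35 ± 0.26, edgeR, adjusted p = 0.00167). In FNcKO it was at 75.2, 93.3 and 136 at 0 h and 167, 166 and 213 at 48 h (log2 0.84 ± 0.25, edgeR, adjusted p = 0.0275). The FNcKO call for Atf4 was lost without FNcKO 0 h replicate 1 (0.114) or 2 (0.0846), without FNcKO 48 h replicate 3 (0.109) and without both 0 h replicate 1 libraries (0.14). Atf6 lay between 79.7 and 95.3 CPM in all WT libraries (log2 0.11 ± 0.16, edgeR, adjusted p = 0.612), and Ern1 had log2 0.11 ± 0.29 (adjusted p = 0.802). In FNcKO the 2 sensors had log2 0.22 ± 0.16 and 0.39 ± 0.29 (edgeR, adjusted p = 0.353 and 0.355).

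Ddit3 encodes CHOP, a factor downstream of ATF4 linked to cell death under lasting stress. It was at 8.92, 9.17 and 6.74 CPM in WT at 0 h and at 6.85, 24.4 and 11.3 at 48 h, so that 1 library of 48 h lay within the range of 0 h and another far above it. The change of log2 0.77 ± 0.40 did not pass (edgeR, adjusted p = 0.158). It was 0.13 without WT 48 h replicate 2 and 1.11 without WT 48 h replicate 1, where it passed (edgeR, adjusted p = 0.8 and 0.0449). In FNcKO Ddit3 was at 9.81 ± 3.43 and 13.5 ± 3.47 CPM (SD, n = 3; log2 0.47 ± 0.40, edgeR, adjusted p = 0.433). Ppp1r15a (GADD34), which restores translation by directing the dephosphorylation of eIF2alpha, had log2 0.38 ± 0.23 in WT and 0.21 ± 0.23 in FNcKO (edgeR, adjusted p = 0.219 and 0.552). Trib3, a pseudokinase that restrains ATF4 and CHOP, was at 0.70, 0.92 and 1.32 CPM in WT at 0 h (7 to 11 counts) and at 4.37, 5.34 and 5.29 at 48 h (46 to 55 counts). These ranges were apart, and Trib3 rose 5.08-fold (log2 2.34 ± 0.63, edgeR, adjusted p = 0.0121), a call lost without both 0 h replicate 1 libraries (0.0617). FNcKO libraries read 1.23, 0.92 and 0.86 at 0 h and 1.80, 1.20 and 7.40 at 48 h, where replicate 3 stood apart. The FNcKO change of 1.77 ± 0.63 did not pass (edgeR, adjusted p = 0.056) and was 0.57 without FNcKO 48 h replicate 3; it passed without FNcKO 48 h replicate 1 (0.0305) or 2 (0.0219), with total counts (0.031) and in DESeq2 (0.0337).

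The ATF4 target enzymes split by direction. In WT 4 of 7 rose (Asns, Chac1, Sesn2 and Mthfd2) and 2 fell (Psat1 and Phgdh), and in FNcKO 3 rose (Asns, Sesn2 and Mthfd2) and 3 fell (Psat1, Phgdh and Shmt2). Of all tested genes, 19.1% rose and 13.5% fell in WT, and 14.9% and 9.90% in FNcKO. The WT calls for Chac1 and Sesn2 did not hold in every alternative, as given below. The median log2 change of the 7 was 0.94 in WT and 1.16 in FNcKO. However, Psat1 and Phgdh had the highest levels of the 7 in WT at 0 h, per kilobase as well. The summed level of the 7 thus went from 798.7 ± 167 to 406 ± 111 CPM in WT (SD, n = 3). Over all 10 ATF4 target genes, the 3 transporters included, the median was -0.142 in WT and -0.195 in FNcKO. By sign, 4 of the 10 were higher and 6 lower in each genotype. Asns, asparagine synthetase, lies on chromosome 6 from 7675171 to 7693182 (mm10). It was at 5.61, 6.12 and 3.85 CPM in WT at 0 h and at 19.5, 29.2 and 24.5 at 48 h (log2 2.22 ± 0.34, edgeR, adjusted p = 0.000427). The FNcKO levels were 2.90, 5.07 and 8.60 at 0 h and 22.1, 23.5 and 31.9 at 48 h, a 4.71-fold rise (log2 2.24 ± 0.34, edgeR, adjusted p = 0.000602). Every 48 h library of either genotype exceeded every 0 h library. Mthfd2, a mitochondrial folate enzyme, was at 5.31, 5.40 and 5.66 CPM in WT at 0 h and at 18.3, 19.3 and 26.0 at 48 h (log2 1.96 ± 0.32, edgeR, adjusted p = 0.000689). In FNcKO it was at 4.02, 7.61 and 5.88 at 0 h and 15.3, 25.2 and 37.3 at 48 h (log2 2.15 ± 0.33, edgeR, adjusted p = 0.00058). Mthfd2 thus had separate ranges too, with the widest spread at 48 h in FNcKO.

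Sesn2, a stress sensor that holds back mTORC1 signalling, rose in both genotypes. It was at 4.81, 5.50 and 3.25 CPM in WT at 0 h and at 9.70, 5.73 and 10.8 at 48 h (log2 0.94 ± 0.33, edgeR, adjusted p = 0.041). FNcKO libraries read 4.02, 3.92 and 4.44 at 0 h and 8.23, 7.53 and 11.9 at 48 h (log2 1.16 ± 0.33, edgeR, adjusted p = 0.0213). Ranges were apart in both, but the WT call was lost in 10 of 22 alternatives and the FNcKO call in 4. Single libraries that ended the WT call were replicates 1, 2 and 3 of WT 0 h (edgeR, adjusted p = 0.0757, 0.0565 and 0.144), replicates 1 and 3 of WT 48 h (0.117 and 0.148) and replicate 1 of FNcKO 0 h (0.0511). For the FNcKO call they were replicates 1 and 2 of FNcKO 0 h (0.0655 and 0.0615) and replicate 3 of FNcKO 48 h (0.104). Without both 0 h replicate 1 libraries neither call for Sesn2 held (0.0936 in WT and 0.0824 in FNcKO). Chac1, which breaks down glutathione, was at 0.60, 0.41 and 1.57 CPM in WT at 0 h (4 to 13 counts) and at 2.85, 10.7 and 3.11 at 48 h (30 to 110 counts). It rose (log2 2.70 ± 0.89, edgeR, adjusted p = 0.033) but no longer passed without WT 48 h replicate 2 (log2 1.81, adjusted p = 0.146), without WT 0 h replicate 1 (0.102) or 2 (0.121), and without both 0 h replicate 1 libraries (0.127). The FNcKO levels were 1.12, 0.81 and 0.72 at 0 h and 1.80, 0.76 and 9.51 at 48 h, so replicate 3 again stood apart. The FNcKO change, 4.49-fold by the model, did not pass (edgeR, adjusted p = 0.0929). It was log2 0.53 without FNcKO 48 h replicate 3, and it passed without FNcKO 48 h replicate 2 (log2 2.65, adjusted p = 0.039) and in DESeq2 (0.0465). The highest WT 48 h library for Chac1, replicate 2, was also the highest for Ddit3 and Atf4.

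Phgdh and Psat1 catalyse successive steps of serine synthesis from a glycolytic intermediate, and Shmt2 turns serine into glycine in mitochondria. Phgdh was at 584, 368 and 492 CPM in WT at 0 h and at 116, 167 and 254 at 48 h (log2 -1.43 ± 0.30, edgeR, adjusted p = 0.00331). In FNcKO it was at 693.5, 530.1 and 834 at 0 h and 229, 345 and 204 at 48 h (log2 -1.40 ± 0.30, edgeR, adjusted p = 0.00482). The levels at 48 h lay below all of those at 0 h. Psat1 was at 249, 133 and 209 CPM in WT at 0 h and at 64.5, 65.7 and 117 at 48 h, 2.39-fold lower (log2 -1.26 ± 0.27, edgeR, adjusted p = 0.00324). FNcKO libraries read 271, 284 and 378 at 0 h and 124, 137 and 118 at 48 h (log2 -1.30 ± 0.27, edgeR, adjusted p = 0.00351). Psat1 had no overlap between times either. Shmt2 was at 104 ± 5.87 and 84.7 ± 7.03 CPM in WT (SD, n = 3; log2 -0.30 ± 0.20, edgeR, adjusted p = 0.268). In FNcKO it fell from 132, 121 and 218 to 89.6, 90.7 and 108 CPM (log2 -0.71 ± 0.20, edgeR, adjusted p = 0.0203), a call lost without FNcKO 48 h replicate 1 (0.0504) or 2 (0.0708), with total counts (0.128) and with only the FNcKO libraries in the fit (0.0666). Per kilobase, Phgdh stood at 257 CPM and Asns at 2.70 in WT at 0 h, and at 95.5 and 12.7 at 48 h.

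Of the 3 transporter genes, none rose. Slc7a11 and Slc7a5 encode the light chains of the cystine and the large neutral amino acid exchangers, and Slc3a2 the heavy chain that both share. Slc3a2 was at 579.7, 464 and 654 CPM in WT at 0 h and at 355, 426 and 378 at 48 h, with no overlap but short of the threshold (log2 -0.55 ± 0.22, edgeR, adjusted p = 0.0664). It passed in DESeq2 (adjusted p = 0.0287), without WT 0 h replicate 2 (0.05, just below before rounding), without FNcKO 0 h replicate 3 (0.0437) and with only the WT libraries in the fit (0.0414). In FNcKO it fell from 821, 659 and 999 to 525, 549 and 382 CPM (log2 -0.77 ± 0.22, edgeR, adjusted p = 0.0203). That call was lost without FNcKO 0 h replicate 3 (0.0526), without FNcKO 48 h replicate 3 (0.0882), without both 0 h replicate 1 libraries (0.0676), with total counts (0.07) and with only the FNcKO libraries in the fit (0.0674). Slc7a11 was at 650.1, 414 and 574 CPM in WT at 0 h and at 641, 352 and 524 at 48 h, a spread wider than the change (log2 -0.11 ± 0.32, edgeR, adjusted p = 0.813), and in FNcKO the change was -0.12 ± 0.32 (adjusted p = 0.827). Slc7a5 had log2 -0.17 ± 0.23 in WT and -0.27 ± 0.23 in FNcKO (edgeR, adjusted p = 0.584 and 0.418).

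**Figure D3:**
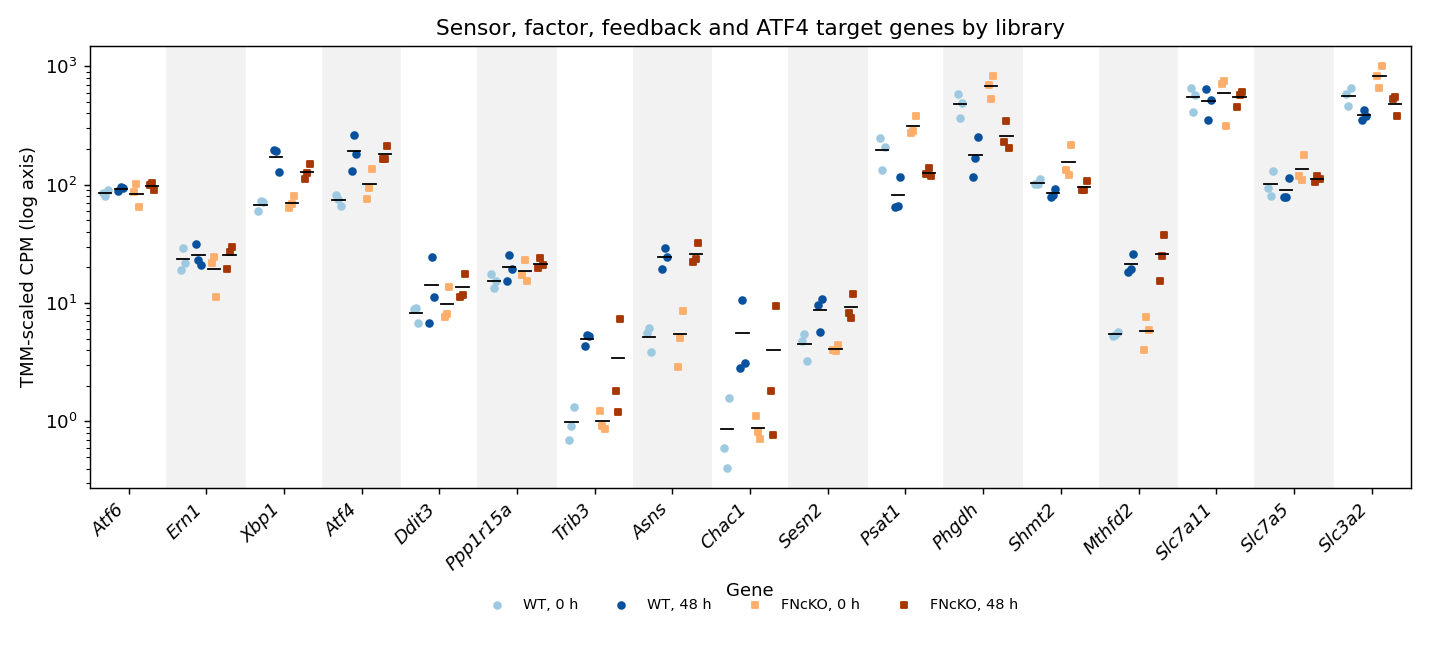
Each point is the TMM-scaled CPM of a library (y axis, log scale) for the 17 sensor, factor, feedback and ATF4 target genes (x axis), with the 4 groups side by side and black bars at the group means. Asns and Mthfd2 lie higher and Phgdh and Psat1 lower at 48 h, and for Chac1 and Trib3 in FNcKO replicate 3 (9.51 and 7.40) lies far above the other 48 h libraries.

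Other genes of the same pathways, taken from pathway lists, moved as follows, beside 19.1% of all tested genes higher and 13.5% lower in WT and 14.9% and 9.90% in FNcKO. Among 35 further ER folding, quality control and degradation genes, 13 rose and none fell in WT, and 7 rose and 1 fell in FNcKO. P4hb, a disulfide isomerase and collagen prolyl hydroxylase subunit, rose from 230 ± 11.8 to 553 ± 80.3 CPM in WT and from 271 ± 10.9 to 508 ± 75.2 in FNcKO (SD, n = 3; edgeR, adjusted p = 0.00022 and 0.00228). Edem1, a gene of ER-associated degradation, rose 2.40-fold in WT and 2.04-fold in FNcKO, without overlap (log2 1.26 ± 0.19 and 1.03 ± 0.19, edgeR, adjusted p = 0.000444 and 0.00213). Among 18 tested sensors and proximal factors, 4 rose and 3 fell in WT, and 5 rose and 1 fell in FNcKO; the WT counts are near the shares of all tested genes. Creb3l1, an ER-bound factor that activates matrix and secretory genes, rose 3.94-fold in WT (log2 1.98 ± 0.30, edgeR, adjusted p = 0.000423). In FNcKO it was at 52.1, 43.1 and 98.2 CPM at 0 h and 69.4, 114.5 and 132 at 48 h, which overlapped, and did not pass (log2 0.71 ± 0.29, edgeR, adjusted p = 0.0881); its difference of responses did not pass either (-1.27 ± 0.41, adjusted p = 0.945). Among 18 tested further ATF4 and CHOP targets, 5 rose and 1 fell in WT, and 4 rose and 3 fell in FNcKO. The transcription factor Atf3 rose from 1.95 ± 0.75 to 15.4 ± 8.79 CPM in WT, and Eif4ebp1, a brake on cap-dependent translation, from 9.77 ± 3.61 to 52.9 ± 7.06 (SD, n = 3; edgeR, adjusted p = 0.000515 and 8.27e-05). Both also rose in FNcKO (log2 2.46 ± 0.46 and 1.52 ± 0.28, edgeR, adjusted p = 0.0021 and 0.00197). Stc2 had the largest called change of this list in FNcKO, and it fell, without overlap (log2 -2.59 ± 0.78, edgeR, adjusted p = 0.0271). Its FNcKO levels were low, at 3.49 ± 0.85 CPM at 0 h and 0.57 ± 0.41 at 48 h (SD, n = 3, 1 to 8 counts at 48 h).

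Of 20 cytosolic tRNA synthetase genes, many of them known ATF4 targets, 13 rose in WT and 12 in FNcKO and none fell, with medians of log2 0.63 and 0.60. Aars, the alanyl-tRNA synthetase, rose 2.40-fold in WT and 2.46-fold in FNcKO (log2 1.26 ± 0.17 and 1.30 ± 0.17, edgeR, adjusted p = 0.00016 and 0.000223). Of 11 serine, glycine, proline and folate genes, 4 rose and 1 fell in WT, and 4 rose and none fell in FNcKO. Of these, Shmt1, which makes glycine from serine in the cytosol, rose 4.87-fold in WT and 6.46-fold in FNcKO (log2 2.28 ± 0.48 and 2.69 ± 0.49, edgeR, adjusted p = 0.00296 and 0.00165). Of 9 further amino acid transporters, 2 rose and 3 fell in WT, and 1 rose and 3 fell in FNcKO. Among those that rose were Slc1a5 in WT (2.41-fold, log2 1.27 ± 0.27, edgeR, adjusted p = 0.00369) and Slc7a1 in FNcKO (1.98-fold, log2 0.99 ± 0.25, edgeR, adjusted p = 0.0111). Slc38a2, a carrier of small neutral amino acids known as an ATF4 target, was at 711, 779 and 880 CPM in WT at 0 h and at 296, 340.1 and 325 at 48 h. It was 2.47-fold lower at 48 h in WT and 2.61-fold lower in FNcKO (log2 -1.30 ± 0.27 and -1.39 ± 0.27, edgeR, adjusted p = 0.00259 and 0.00235).

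Between the genotypes, none of the 34 genes passed the threshold at 48 h or at 0 h, nor did the difference of the 48 h responses. By edgeR, 2 genes at 48 h (Psat1 and Xbp1), 7 at 0 h and 3 for the difference had an unadjusted p under 0.05, and DESeq2 called none of the 34 either. Of all genes, 0.240% passed at 48 h, 0.144% at 0 h and 0% for the difference, so calls were rare in these comparisons over all genes, and a missed threshold does not show equal levels. Libraries did not overlap between genotypes for 6 genes at 48 h, 2 higher and 4 lower in FNcKO, and for 5 at 0 h, all higher, against 9.74% and 16.6% of all genes in either direction.

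Chaperone levels at 0 h lay above WT in FNcKO for all 14 genes by the sign of the log2 value (median 0.28, against 0.01 over all genes), or 12 of the 14 with total counts (median 0.12). At 48 h they lay below WT for 13 of the 14 (median -0.19, against 0.01 over all genes), the exception being Dnajc3. The 48 h signs of Canx, Manf and Creld2 turned in some alternatives (highest log2 0.06, 0.03 and 0.12). Of all 14560 tested genes, 7454 lay above WT at 0 h and 6987 below it at 48 h. The difference of responses, FNcKO minus WT, had a negative sign for all 14 (median -0.49; 13 of 14 with total counts, and when replicate 2 of WT 0 h, replicate 1 of WT 48 h or replicate 2 of FNcKO 0 h was left out). Over all 14560 tested genes, 7409 had a negative sign for this difference (median -0.009). These 3 comparisons share libraries and are not independent of each other, and none of the 14 passed in any of them. The 14 genes were read in the same libraries, so their signs are not independent observations either. The summed chaperone level was 3276 ± 416 CPM in WT and 3931 ± 535 in FNcKO at 0 h, and 5919 ± 420 and 5243 ± 270 at 48 h (SD, n = 3). Manf differed most at 0 h among the chaperones, at 30.4 to 39.1 CPM in WT and 39.2 to 69.9 in FNcKO (log2 0.63 ± 0.20, edgeR, adjusted p = 0.344). Its difference of responses was -0.71 ± 0.28 (edgeR, adjusted p = 0.945), and that of Calr was -0.64 ± 0.27 (adjusted p = 0.945).

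Among the ATF4 targets, Asns had a difference of responses of 0.01 ± 0.47 (edgeR, adjusted p = 0.999), and Mthfd2 of 0.20 ± 0.45 (adjusted p = 0.966), with SEs too wide to show equal responses. Psat1 was higher in all FNcKO libraries than in the WT libraries at both times (log2 0.66 ± 0.26 at 0 h and 0.62 ± 0.26 at 48 h, edgeR, adjusted p = 0.406 and 0.855). Shmt2 and Slc3a2 did not overlap at 0 h (log2 0.59 ± 0.20 and 0.55 ± 0.22, edgeR, adjusted p = 0.357 and 0.406). The genotypes did not overlap for 16.6% of all tested genes at 0 h and 9.74% at 48 h, in either direction. At 48 h Xbp1 was at 128 to 197 CPM in WT and 112 to 150 in FNcKO, which overlapped (log2 -0.41 ± 0.19, edgeR, adjusted p = 0.891).

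**Figure D4:**
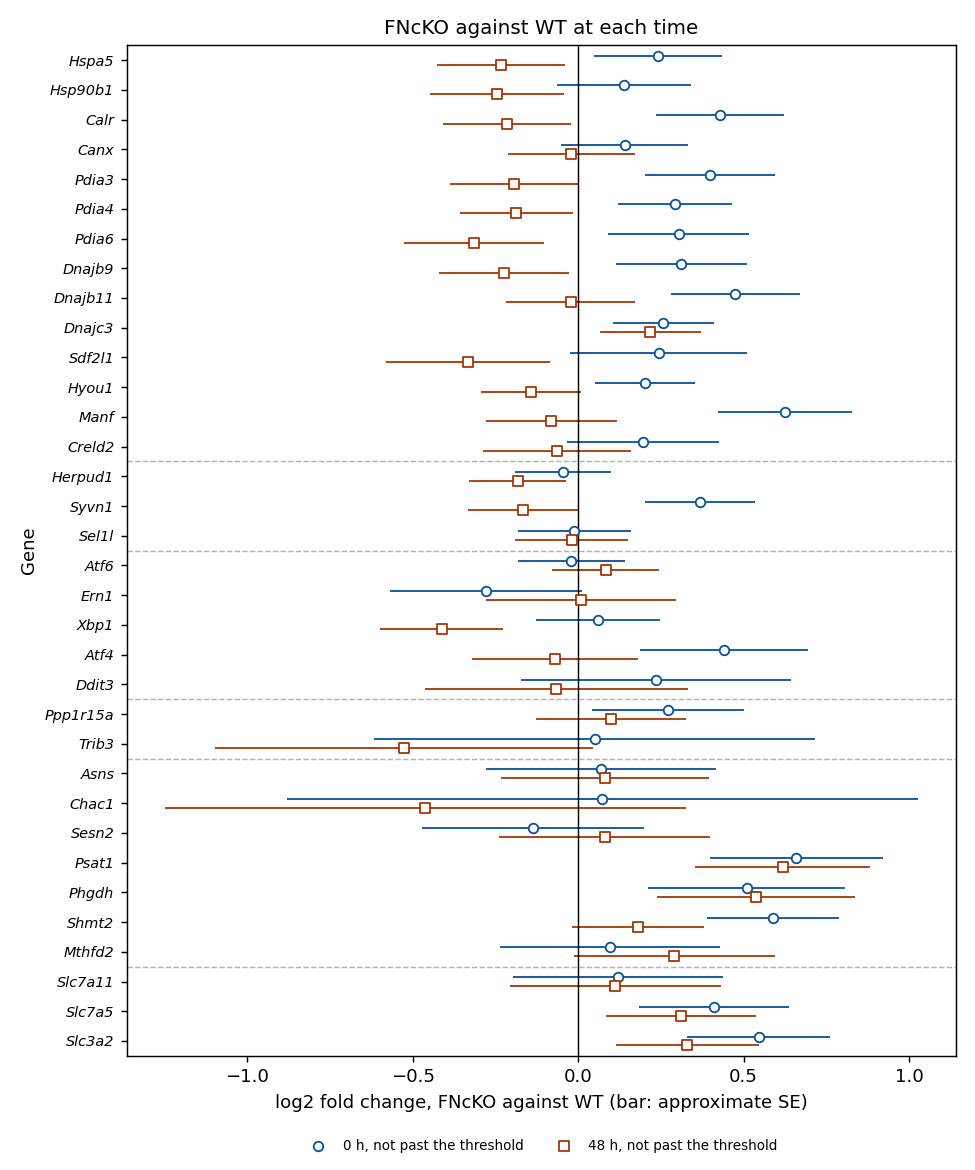
The log2 fold change of FNcKO against WT (x axis) at 0 h (blue circles) and 48 h (red squares) is plotted for the 34 genes (y axis) with the approximate SE as bars. All symbols are open because no gene passed the threshold, and the 14 chaperone genes at the top lie to the right of 0 at 0 h, 13 of them to the left at 48 h.

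Markers of other cells moved with time as well. Beside the counts below, 19.1% of all tested genes rose and 13.5% fell in WT, and 14.9% and 9.90% in FNcKO. The labelled lens epithelium was present, with Pax6 at 455 ± 48.4 CPM in WT and 514 ± 7.46 in FNcKO at 0 h (SD, n = 3), and its 10 markers summed to 2408 to 3169 CPM in WT at 0 h and 1978 to 2161 at 48 h, and to 4090 to 4565 and 1667 to 2541 in FNcKO (1 rose and 4 fell in WT, 1 rose and 6 fell in FNcKO). The 13 measured macrophage markers summed to 76.7 to 180 CPM at 0 h and 304 to 837 at 48 h in WT (7 rose, none fell), and to 63.6 to 127 and 199.7 to 449.5 in FNcKO (6 rose, 1 fell); Ly6c2 was at 0 in the FNcKO 0 h libraries. The 7 neutrophil markers summed to 4.81 to 10.2 CPM at 0 h and 61.3 to 347 at 48 h in WT, and to 3.80 to 4.73 and 41.5 to 111 in FNcKO. All 5 of them that were tested rose in WT and 4 rose in FNcKO, and the highest sum was that of WT 48 h replicate 1. The 4 general leukocyte markers summed to 11.2 to 27.0 CPM at 0 h and 67.9 to 205 at 48 h in WT (4 rose), and to 6.48 to 14.2 and 34.5 to 108.5 in FNcKO (3 rose). FNcKO 48 h replicate 3, the library with the high Trib3 and Chac1 levels, had the highest neutrophil and leukocyte sums of the FNcKO libraries (111 and 108.5 CPM) and the lowest crystallin share of all 12 libraries (1.48%). Of the WT 48 h libraries, replicate 1 had the highest sums (347 and 205 CPM, crystallin share 1.79%), with Trib3 at 4.37 and Chac1 at 2.85 CPM. Replicate 2 had sums of 73.1 and 104 CPM and a share of 7.43%, with the 2 genes at 5.34 and 10.7. Replicate 3 had sums of 61.3 and 67.9 CPM and a share of 5.93%, with the 2 genes at 5.29 and 3.11. The WT 48 h levels of Trib3 thus lay close together. Elane was at 0 in both genotypes at 0 h, as was Mpo in FNcKO. Plasma and B cell markers, of a cell type rich in ER chaperones, summed to 1.20 to 3.87 CPM at 0 h and 1.97 to 4.18 at 48 h in WT and to 0.447 to 1.499 and 0.982 to 3.38 in FNcKO. The 1 of them that was tested, Igj, did not pass, and Ms4a1 was at 0 in both genotypes at 0 h. The 22 fiber cell markers summed to 129600 to 227300 CPM at 0 h and 16020 to 68690 at 48 h in WT, and to 158400 to 339800 and 13430 to 119900 in FNcKO (9 fell in WT, 8 in FNcKO and none rose). The 8 pigment cell markers summed to 199.5 to 279 CPM at 0 h and 179 to 460 at 48 h in WT (3 rose, 1 fell), and to 142 to 168 and 18.8 to 65.9 in FNcKO (none rose, 2 fell). The 7 endothelial markers summed to 17.6 to 47.1 CPM and 46.5 to 86.9 in WT, and to 9.61 to 22.7 and 22.5 to 53.3 in FNcKO, and 4 of them rose in each genotype. None of the 10 photoreceptor markers passed, and 1 of 4 tested corneal markers fell in each genotype. Without WT 48 h replicate 1, 18 of the 34 genes rose in WT, and with the crystallin genes left out of the scaling 19 rose in WT and 12 in FNcKO. Markers also differed between genotypes, where 0.240% of all tested genes passed at 48 h and 0.144% at 0 h. At 48 h, 3 of the 8 pigment cell markers were called lower in FNcKO and none higher (median log2 -2.97). At 0 h, 1 of the 10 lens epithelium markers was called higher in FNcKO and none lower. By sign alone, all 13 macrophage, 5 tested neutrophil and 4 leukocyte markers lay below WT at 48 h. In the same way 20 of the 22 fiber cell markers lay above WT, and none of these 4 lists had a call. The part of these other cells in the levels and changes of the 34 genes was not tested.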

How the data were processed

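RNA of 12 libraries was sequenced. The authors deposited a read count per gene for each library, together with coordinates and gene length, per the file headers. The submitters' processing notes name TopHat2 2.1.0, HTSeq 0.6.1p1, edgeR 3.16.5, Trim Galore 0.4.4 and the mm10 build, without roles or options; the sources used here do not say whether counting used strand. The analysis used edgeR 4.0.16 in R 4.3.3: filterByExpr by group (14560 genes kept), TMM scaling, a robust quasi-likelihood fit of 4 group means to all 12 libraries, F tests and BH adjustment over all tested genes, and DESeq2 1.42.0 as an alternative. In all, 22 alternatives were run for each comparison, 12 of them leaving out 1 library, and 21 for the difference of responses. The script was tested on simulated counts. All 34 members may be named, as may, from each list of other pathway genes, up to 3 called genes of largest change per genotype and, from each marker list, the 2 of highest mean level; further markers at 0 (Ly6c2, Elane, Mpo, Ms4a1) were named after their values were seen. Members and lists were chosen with earlier results of these data known. Where a gene is at 0, its level may be as high as 3 counts (0.285 to 0.43 CPM by library), which covers counting error alone. Promoters are from RefSeq tables.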

Additional observations from a re-analysis of the deposited data

How the results depend on the processing

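No member changed direction under any alternative in a comparison it had passed, and none of the 34 genes passed between genotypes or for the difference of responses in any alternative. Of the 22 WT calls over time, 17 were kept in all 22 alternatives; 5 were lost in some (Dnajb9, Herpud1, Trib3, Chac1 and Sesn2). Of the 17 FNcKO calls, 10 were kept in all and 7 were lost in some (Hspa5, Pdia4, Creld2, Atf4, Sesn2, Shmt2 and Slc3a2). In FNcKO, 3 rather than 5 members fell with total counts and with only the groups compared, and with total counts 16 rather than 12 rose. Without both 0 h replicate 1 libraries, 7 rather than 12 members rose and 2299 rather than 3611 of all genes passed in FNcKO. Leaving out 1 library at a time gave 16 to 20 members higher and 3 to 4 lower in WT, and 7 to 13 higher (7 without FNcKO 0 h replicate 1) and 4 to 5 lower in FNcKO; all genes passing ran from 3209 to 5220 in WT and from 2232 (without FNcKO 48 h replicate 3) to 4095 in FNcKO. The cause of these moves was not tested.

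Between genotypes at 48 h, 35 of all genes passed, against 22 with 1 CPM in 6 libraries, 7 with only the groups compared, 119 in DESeq2, 14 without both 0 h replicate 1 libraries and 10 to 46 when 1 library was left out. At 0 h, 21 passed, against 10 with total counts, 129 in DESeq2, 2 without both 0 h replicate 1 libraries and 2 to 28 when 1 library was left out. For the difference of responses, 0 passed by edgeR (735 at an unadjusted p under 0.05), against 28 in DESeq2 and 0 to 1 when 1 library was left out.

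Replicate numbers are shared between groups. The deviations of 18 same-numbered pairs correlated from -0.474 to 0.291, with 4 over 0.1, so no pairing by number was visible. A pairing of small effect could be missed in this way. With a replicate block, 18 members rose in WT and 10 in FNcKO, and 1 of all genes passed for the difference of responses. Depth limits Trib3 and Chac1, whose 0 h libraries held 4 to 13 counts.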
